A study of Rattus norvegicus with 2 samples.

Results

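The genes described here are 48 genes of the liver's extracellular matrix and of the hepatic stellate cell: collagens, matrix glycoproteins and proteoglycans, elastic fibre proteins, the enzymes that crosslink or cut the matrix, the inhibitors of those enzymes, and markers of the cells that make it. A gene was taken up where a non-control probe's RefSeq accession mapped to its symbol, which gave a named probe for 39 of the 48, among 13667 genes named on the array. Of the 39, 29 gave a signal well above background on both arrays, 9 did so on the senecionine array alone, as did 19.1% of all named genes, and 1 (Thy1) did so on neither. The other 9 (Col5a2, Col4a2, Col15a1, Lamb1, Nid1, Col6a1, Col6a3, Lox and Adamts1) had no probe that could be named and were not analysed here.

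RNA came from livers of Sprague Dawley rats. The senecionine group was dosed by the intragastric route with senecionine, a plant pyrrolizidine alkaloid, at 35 mg/kg, and the control group received sodium chloride. All livers were taken 36 h after dosing, and tissue of 3 animals was pooled per group and hybridised to 1 Agilent array, labelled with Cy3. Each value is therefore that of a pool, animals cannot be compared, no test was possible and no p-value is given. A relative signal below is a probe's processed signal divided by the 75th percentile of its own array (134 intensity units on the senecionine array and 101 on the control array). Log2 ratios are senecionine minus control, and the ± beside them is Agilent's spot error, which is technical error within the arrays. It lay near 0.20 for bright genes and was not the measured spread of spots. Repeated spots had a log2 standard deviation of 0.03 for Fn1 on the senecionine array and 0.28 for Timp1 on the control array. Genes were counted as higher or lower from 2-fold on.

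Matrix in a healthy liver is sparse. Hepatic stellate cells lie between hepatocytes and the sinusoidal endothelium and store vitamin A as retinyl esters. After injury they lose these stores, take on contractile proteins and lay down fibrillar collagen, while matrix metalloproteinases cut the matrix and TIMP proteins inhibit them. Pyrrolizidine alkaloids are known to injure the sinusoidal endothelium as well as hepatocytes.

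As a whole these genes split. Of the 29 measured genes, 5 were higher after senecionine by 2-fold or more (Dcn, Timp1, Des, Gas6 and Col4a1), against 11.2% of all 7803 measured genes. Another 4 (Lrat, Hhip, Bgn and Sparc) were at least 2-fold lower, against 17.7% of all measured genes, and 20 lay within 2-fold. With so few members both counts lie near the share of all genes. Their median log2 ratio was 0.16, against -0.14 for all measured genes. The split depends on how the arrays are scaled. With median scaling 3 were higher and 5 lower. With quantile normalization, cyclic loess or normexp background correction 7 were higher and 2 lower. Counts over all 7803 genes moved too, from 876 higher and 1379 lower to 711 and 1660 with median scaling. They were 942 and 1283 with quantile normalization, 971 and 1311 with cyclic loess, and 613 and 761 with normexp. Dcn, Timp1 and Des were higher and Lrat lower under all 5 of these settings. In bulk tissue, fewer cells of a type and less RNA per cell cannot be told apart.

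**Figure D1:**
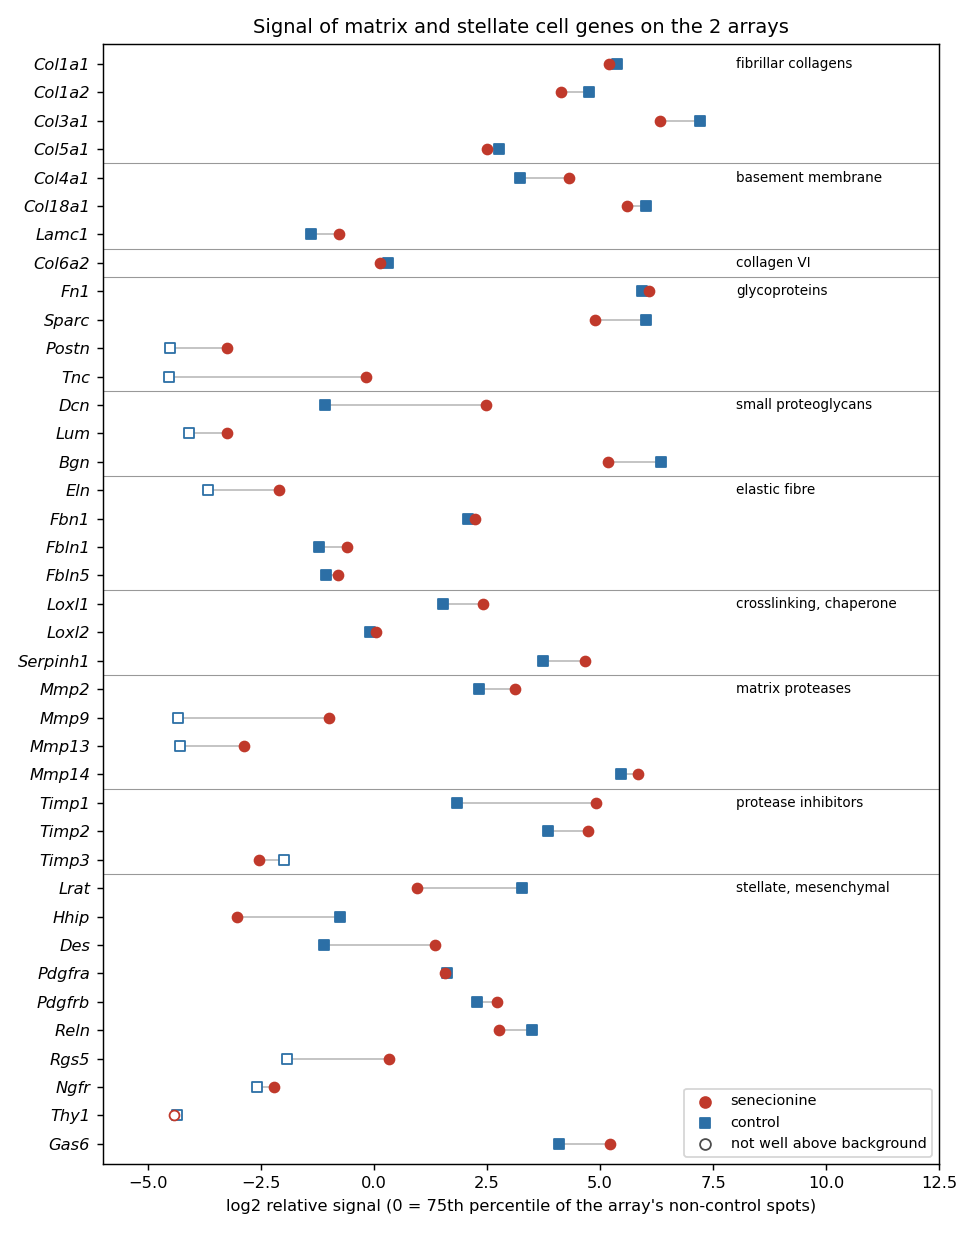
Log2 relative signal (x axis, 0 is the 75th percentile of each array) of the 39 named genes, grouped by role, on the senecionine array (red circles) and the control array (blue squares). Open symbols were not well above background. The longest lines belong to genes that were dim on the control array, such as Tnc, Dcn and Mmp9. All 4 measured fibrillar collagens lie within 2-fold, although Col3a1, the brightest, is lower in senecionine livers (80.6, against 148 in control livers).

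**Figure D2:**
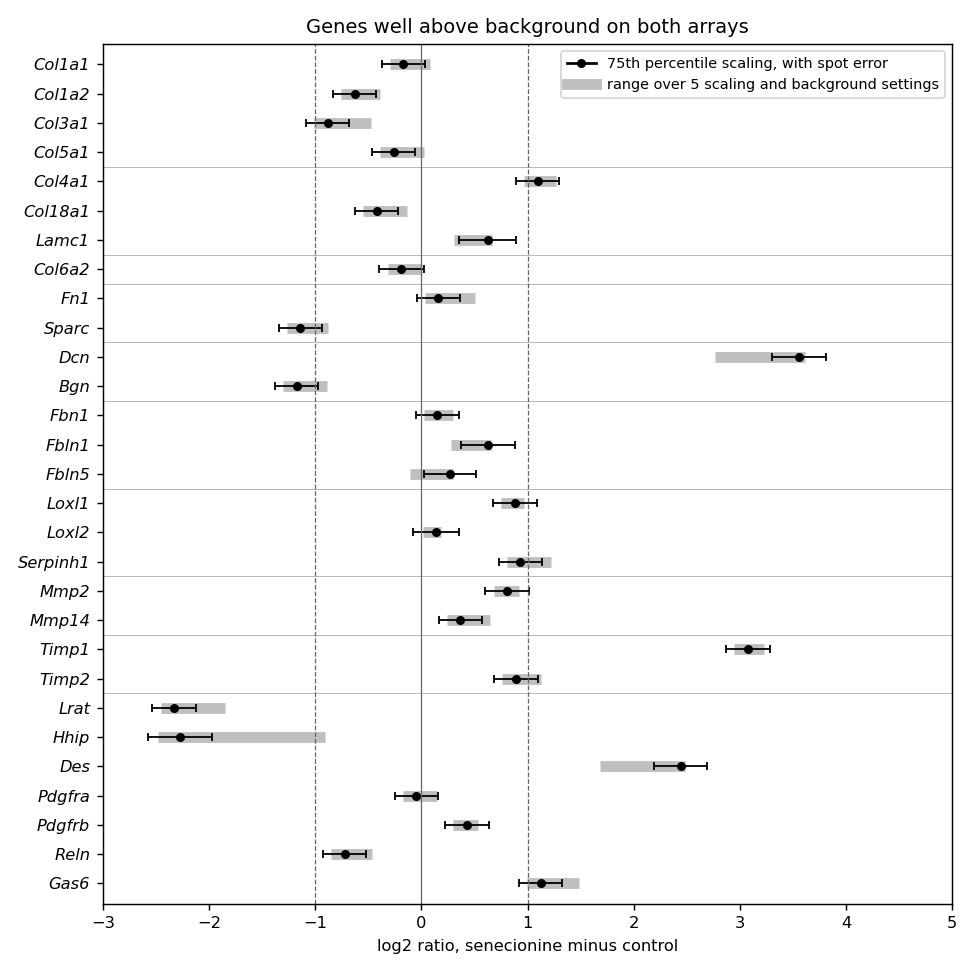
Log2 ratio, senecionine minus control, of the 29 genes well above background on both arrays (points, with Agilent's spot error as bars). Grey bands span the values under 5 scaling and background settings and dashed lines mark 2-fold. Dcn, Timp1 and Des lie right of the upper line and Lrat left of the lower line with their whole bands.

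Fibrillar collagens, the rope-like proteins of scar tissue, lay within 2-fold in all 4 measured cases. Col3a1, the chain of type III collagen, had a relative signal of 80.6 in senecionine livers and 148 in control livers (log2 ratio -0.88 ± 0.20). It passed 2-fold under median scaling alone of the 5 settings, at -1.01. Col1a2, a chain of type I collagen, had 17.6 in senecionine livers and 27.1 in control livers (-0.63 ± 0.20). For Col1a1, the main chain of type I collagen, the brighter probe gave 36.9 in senecionine livers and 41.5 in control livers (-0.17 ± 0.20), while its other probe had a log2 ratio of 0.65. Col5a1, of the type V collagen that seeds fibrils, had 5.69 in senecionine livers and 6.82 in control livers (-0.26 ± 0.20). The Col1a1 ratio was smaller than its spot error, and the signs of Col1a1 and Col5a1 turned under other scaling or background settings, to at most 0.08 and 0.02. With the mean of its probes Col1a1 had 0.24. No measured probe of these 4 genes was 2-fold higher after senecionine.

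Collagens of basement membranes, the thin sheets under vessels and epithelia, had no common direction. Col4a1, a network-forming chain, had a relative signal of 20.0 in senecionine livers and 9.34 in control livers, 2.14-fold higher (1.10 ± 0.20). Its dimmer probe went the other way, at -0.71, so the direction of Col4a1 rests on the choice of probe. The log2 ratio of Col18a1, whose C-terminal fragment is endostatin, was -0.42 ± 0.20, with 48.3 in senecionine livers and 64.7 in control livers, and its other probe gave -0.51. For Lamc1, the common gamma chain of laminins, the ratio was 0.62 ± 0.27. Col6a2, of the microfibrillar collagen VI, differed by less than its spot error (-0.19 ± 0.21).

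Among the small leucine-rich proteoglycans, which coat collagen fibrils, Dcn and Bgn stood on opposite sides. Dcn (decorin) had a relative signal of 5.56 in senecionine livers and 0.473 in control livers, and was 11.8-fold higher (3.56 ± 0.25). That was the highest ratio of the 29 genes and the 35th highest of all 7803. Bgn (biglycan), its close relative, had 36.0 in senecionine livers and 81.3 in control livers, and was 2.26-fold lower (-1.17 ± 0.20). Under quantile normalization, cyclic loess and normexp Bgn came within 2-fold, with a value of -0.89 nearest to 0. Lum (lumican) was dim, at 0.105 in senecionine livers and 0.0583 in control livers, where it was not well above background. The opposite directions of Dcn and Bgn held under all 5 scaling and background settings, although each was read by 1 probe.

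Of the matrix glycoproteins, Fn1 lay within 2-fold and Sparc was lower. Fn1 (fibronectin), made by hepatocytes as a plasma protein and by many cells as a matrix protein, had relative signals of 65.9, 68.1 and 69.5 (lowest, median and highest of 9 spots) in senecionine livers. In control livers its 10 spots gave 52.0, 61.9 and 68.3. The ranges of the spots overlapped, and the log2 ratio was 0.16 ± 0.20, or -0.20 with the outlier-flagged spot kept. The Fn1 ratio was 0.03 with median scaling, 0.47 with quantile normalization, 0.45 with cyclic loess and 0.50 with normexp. Sparc (osteonectin), a collagen-binding protein secreted by mesenchymal and endothelial cells, had 29.4 in senecionine livers and 64.9 in control livers, 2.21-fold lower (-1.14 ± 0.20). It came within 2-fold under quantile normalization and cyclic loess, up to -0.88. Tnc (tenascin-C), a protein of healing wounds, had 0.877 in senecionine livers and 0.0431 in control livers, the second not well above background, which makes it at least 4.30-fold higher. Its other probe was not well above background on either array. Postn (periostin), another wound protein, was well above background in senecionine livers at 0.106 but too dim for a bound.

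Sparc is also a gene of astrocytes, and the control array carried signal from nervous system genes. Of 25 listed markers of neurons, oligodendrocytes and astrocytes, 23 had a named probe, of which 14 exceeded background clearly in senecionine livers and 15 in control livers. Their summed relative signal was 6.54 in senecionine livers and 85.6 in control livers. Of the 12 measured on both, 10 were lower by 2-fold or more and 0 higher, led by Mbp (-6.43 ± 0.29), Tubb3 (-4.32 ± 0.20) and Cldn11 (-4.28 ± 0.31). Snap25, Nefm and Gap43 passed background in control livers alone, and Syt1, Stmn2, Gfap, S100b, Gria2, Gad1, Gad2 and Slc17a7 did not do so there. Markers of sinusoidal endothelium moved the same way, with 4 of 5 at least 2-fold lower and a summed relative signal of 19.2 in senecionine livers and 85.8 in control livers. Among them were Dnase1l3 (-4.37 ± 0.21), Mrc1 (-2.90 ± 0.21) and Kdr (-2.89 ± 0.20), while Pecam1 was not well above background on either array. The part of these cell types in the lower signals of Sparc and Bgn was not tested.

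The 3 elastic fibre genes measured on both arrays lay within 2-fold on their brighter probes. Fbn1 (fibrillin), the core of microfibrils, had relative signals of 4.71 in senecionine livers and 4.24 in control livers on its brighter probe (0.15 ± 0.20). The other Fbn1 probe gave 1.36 ± 0.22, past 2-fold. Fbln1 and Fbln5, fibulins that join elastin to microfibrils, had log2 ratios of 0.62 ± 0.25 and 0.27 ± 0.25. Eln (elastin) itself reached 0.231 in senecionine livers and 0.0780 in control livers, not well above background there, and was at least 1.13-fold higher.

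The 3 measured genes of the lysyl oxidase and collagen chaperone group had ratios above 0 and within 2-fold. Serpinh1 (HSP47), the endoplasmic reticulum chaperone of procollagen, had a relative signal of 25.4 in senecionine livers and 13.3 in control livers, 1.91-fold higher (0.93 ± 0.20). Loxl1, a lysyl oxidase that crosslinks elastin, had 5.27 in senecionine livers and 2.86 in control livers (0.88 ± 0.21), and 0.50 on its other probe. Loxl2, a crosslinker of collagen IV, had a log2 ratio of 0.14 ± 0.21. Serpinh1 lay just inside the 2-fold line and crossed it under quantile normalization, cyclic loess and normexp, reaching 1.22. The authors' deposited table, a list of probes with an absolute difference of at least 1, holds Serpinh1 at a log2 difference of 1.19.

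Matrix proteases and their inhibitors differed in size more than in direction. Timp1, an inhibitor of metalloproteinases that injured liver is known to produce, had relative signals of 27.7, 30.04 and 31.8 (lowest, median and highest of 10 spots) in senecionine livers. Its 10 spots on the control array gave 2.69, 3.69 and 4.40. The spots of the arrays did not overlap, and Timp1 was 8.43-fold higher (3.08 ± 0.21). Its log2 ratio, the 65th highest of all measured genes, ran between 2.95 and 3.23 across the 5 settings. Timp2, another inhibitor and a partner in the activation of Mmp2, had 26.5 in senecionine livers and 14.3 in control livers, 1.85-fold higher (0.89 ± 0.20). Timp2 passed 2-fold under quantile normalization, cyclic loess and normexp, reaching 1.12. Timp3, the matrix-bound inhibitor, was near background on both arrays, at 0.170 in senecionine livers and 0.250 in control livers, where it was not well above background.

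Mmp2, the gelatinase of stellate cells and fibroblasts, had spots at 7.97, 8.61 and 10.1 (lowest, median and highest of 10) in senecionine livers and at 3.91, 5.19 and 5.46 in control livers. The spots did not overlap, yet the ratio of 0.81 ± 0.20 (1.75-fold) stayed under 2-fold. Mmp14, the membrane protease that activates proMMP2, had 57.2 in senecionine livers and 44.3 in control livers (0.37 ± 0.20). Mmp9, the gelatinase stored in neutrophil granules, gave 0.460, 0.487 and 0.565 over its 10 spots in senecionine livers. On the control array its 8 unflagged spots lay between 0.0423 and 0.0608, none well above background, and Mmp9 was at least 2.44-fold higher. Neutrophil markers had a summed relative signal of 76.7 in senecionine livers and 3.86 in control livers. S100a9 (6.53 ± 0.28), S100a8 (6.28 ± 0.26) and Itgb2 (1.73 ± 0.21) were the 3 measured on both arrays. Cxcr2 had 0.124 in senecionine livers and 0.0406 in control livers, and Elane went the other way, with 0.109 in senecionine livers and 0.177 in control livers, both not well above background in control livers. The part of neutrophils in the Mmp9 signal was not tested. Mmp13, the rodent interstitial collagenase, was well above background in senecionine livers at 0.137, too dim for a bound.

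**Figure D3:**
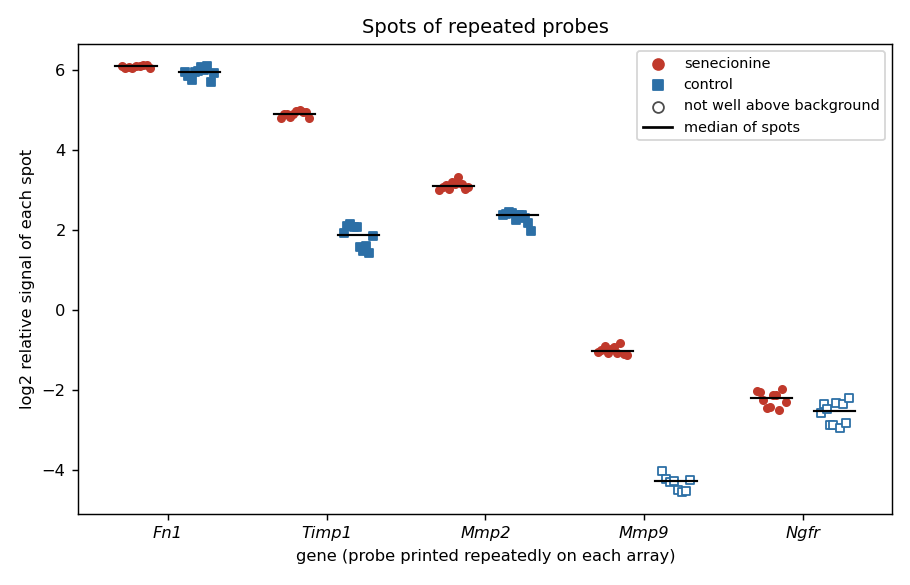
Log2 relative signal of each unflagged spot (points) of the 5 genes whose probe is printed repeatedly, on the senecionine array (red, left) and the control array (blue, right), with the median of the spots as a black line. Spots are repeats within an array. Timp1, Mmp2 and Mmp9 separate fully, whereas the spots of Fn1 and Ngfr overlap.

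Genes of the stellate cell itself went both ways. Lrat, the enzyme that esterifies retinol for storage and a defining gene of quiescent stellate cells, had a relative signal of 1.94 in senecionine livers and 9.72 in control livers, 5.02-fold lower (-2.33 ± 0.20). It kept this direction and size class under all 5 settings, between -2.45 and -1.85. Its other probe was not well above background on either array. Hhip, an inhibitor of hedgehog ligands also used as a stellate marker, had 0.122 in senecionine livers and 0.590 in control livers, 4.83-fold lower (-2.27 ± 0.30). Hhip was dim, and normexp correction moved it to -0.91. Reln (reelin), a secreted glycoprotein of stellate cells and of neurons, had 6.78 in senecionine livers and 11.2 in control livers (-0.72 ± 0.20), and its other probe gave -0.75.

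Des (desmin), the muscle-type intermediate filament of rat stellate cells, was on the opposite side. It had 2.52 in senecionine livers and 0.465 in control livers, 5.43-fold higher (2.44 ± 0.25), or 1.68 with normexp. Rgs5, a pericyte regulator of G-protein signalling, had 1.26 in senecionine livers. In control livers it had 0.265, not well above background, and the ratio of these 2 signals was 4.76-fold (2.25 ± 0.36), an estimate and not a lower limit. Gas6, the ligand of the TAM receptors Axl and Mertk, had 37.2 in senecionine livers and 17.1 in control livers, 2.18-fold higher (1.12 ± 0.20), with 1.07 on its other probe. With median scaling Gas6 and Col4a1 lay just within 2-fold, at 1.00 and 0.97. The receptors of platelet-derived growth factor, the main mitogen of stellate cells, lay within 2-fold. Pdgfrb had 6.54 in senecionine livers and 4.86 in control livers (0.43 ± 0.20), and ran between 0.30 and 0.54 across the 5 settings. Pdgfra barely differed, with 2.97 in senecionine livers and 3.06 in control livers (-0.05 ± 0.21). Ngfr, a neurotrophin receptor, had 0.178, 0.219 and 0.252 over its 10 spots in senecionine livers and 0.129, 0.174 and 0.217 in control livers, so the spots overlapped. Thy1, a marker of portal fibroblasts and other cells, was not well above background on either array.

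The 10 listed stellate cell markers, of which 9 had a named probe, passed background in 9 cases in senecionine livers and 7 in control livers. Lrat, Reln, Hhip, Des, Rgs5, Ngfr and Pdgfrb among them are members described above, so this list is no separate measure of stellate cells. Their summed relative signal was 32.0 in senecionine livers and 32.7 in control livers. Of 7 measured there, 2 were higher by 2-fold or more (Des and Cygb) and 2 lower (Lrat and Hhip). All 5 named hepatocyte markers passed background on both arrays, with a summed relative signal of 2316 in senecionine livers and 4012 in control livers. The lowest of them were Apoc3 (-2.08 ± 0.20), Alb (-1.14 ± 0.20) and Cps1 (-1.13 ± 0.20). Apoc3 stayed past 2-fold under all 5 settings, while Alb and Cps1 came within it under some, up to -0.64 and -0.91. Smooth muscle markers, which share contractile genes with stellate cells, had summed relative signals of 9.13 in senecionine livers and 6.30 in control livers, with Tagln at 2.80 ± 0.22, Myh11 at 0.77 ± 0.27 and Smtn at -0.62 ± 0.20. Platelet markers had summed relative signals of 15.4 in senecionine livers and 2.60 in control livers, with Pf4 at 3.37 ± 0.21 and Gp1bb at 0.98 ± 0.21. Acta2 had no probe that could be named, so the usual marker of activated stellate cells was not analysed here. The part of these cell types in the ratios of the 48 genes was not tested.

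Promoters are shown for the genes with the largest ratios among those with an entry in the RefSeq promoter table (Timp1 and Des, higher, and Lrat and Hhip, lower). Dcn has no entry there, and 32 of the 48 genes do. Sequences are the 250 bases before the annotated start on GRCr8, 5′ to 3′. Capitals mark matches on either strand to the AP-1 site TGANTCA, its variant TGAGTAA, the CCAAT box CCAAT, the GC box GGGCGG and the TATA box TATAAA. The regions are chrX:3771123-3771372, minus strand for Timp1, chr9:84299376-84299625, plus strand for Des, chr2:170571213-170571462, minus strand for Lrat and chr19:44767788-44768037, plus strand for Hhip.
Timp1: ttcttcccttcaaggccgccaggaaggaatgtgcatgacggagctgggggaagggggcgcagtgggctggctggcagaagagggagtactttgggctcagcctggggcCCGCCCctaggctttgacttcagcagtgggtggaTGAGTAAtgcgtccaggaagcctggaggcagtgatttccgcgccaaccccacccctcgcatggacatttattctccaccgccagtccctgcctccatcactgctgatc
Des: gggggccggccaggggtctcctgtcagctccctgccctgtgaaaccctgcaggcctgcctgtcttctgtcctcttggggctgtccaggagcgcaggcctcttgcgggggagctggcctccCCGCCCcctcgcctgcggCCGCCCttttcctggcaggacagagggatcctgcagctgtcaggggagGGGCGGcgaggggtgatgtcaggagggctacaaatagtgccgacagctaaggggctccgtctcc
Lrat: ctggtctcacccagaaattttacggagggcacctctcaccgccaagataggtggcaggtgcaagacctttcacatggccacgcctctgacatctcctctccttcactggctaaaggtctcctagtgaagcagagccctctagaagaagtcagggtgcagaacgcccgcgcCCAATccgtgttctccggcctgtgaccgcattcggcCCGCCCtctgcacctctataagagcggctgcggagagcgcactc
Hhip: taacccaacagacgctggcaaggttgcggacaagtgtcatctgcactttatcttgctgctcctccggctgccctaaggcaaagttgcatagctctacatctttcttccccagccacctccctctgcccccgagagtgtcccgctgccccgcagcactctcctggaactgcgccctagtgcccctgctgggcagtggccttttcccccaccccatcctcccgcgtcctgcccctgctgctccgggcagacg
Timp1 held the AP-1 variant TGAGTAA, from 108 to 102 bases before its start, and 1 GC box. That variant was entered in the search as the AP-1 form of Timp1, so its match there was close to fixed in advance and carries no weight. The variant lay in 1 of the 32 members with an entry, against 1.98% of 19005 protein-coding promoters. The full AP-1 site lay in 3 of 32 (Col6a1, Mmp13 and Pdgfra), against 5.82% of all. Des held 3 GC boxes, Lrat a CCAAT box and a GC box, and Hhip no match. GC boxes lay in 19 of the 32, against 40.3% of all, CCAAT boxes in 9, against 35.5%, and TATA boxes in 5, against 12.3%. A match describes these letters only and shows no binding.

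Other genes of the pathway were described from a list of 139 further matrix and fibrosis genes, drawn up with earlier results of these arrays known, which gives its counts no independent weight. Among the 70 measured on both, 26 were higher by 2-fold or more and 12 lower, with a median log2 ratio of 0.41, beside 11.2% and 17.7% of all measured genes. Of these, 20 higher and 3 lower genes stayed past 2-fold under all 5 settings. A further 37 passed background in senecionine livers alone and 1 (Itgb3, at least 3.57-fold lower after senecionine) in control livers alone. Passing background in senecionine livers alone was common, at 19.1% of all named genes, and gives a list no direction.

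**Figure D4:**
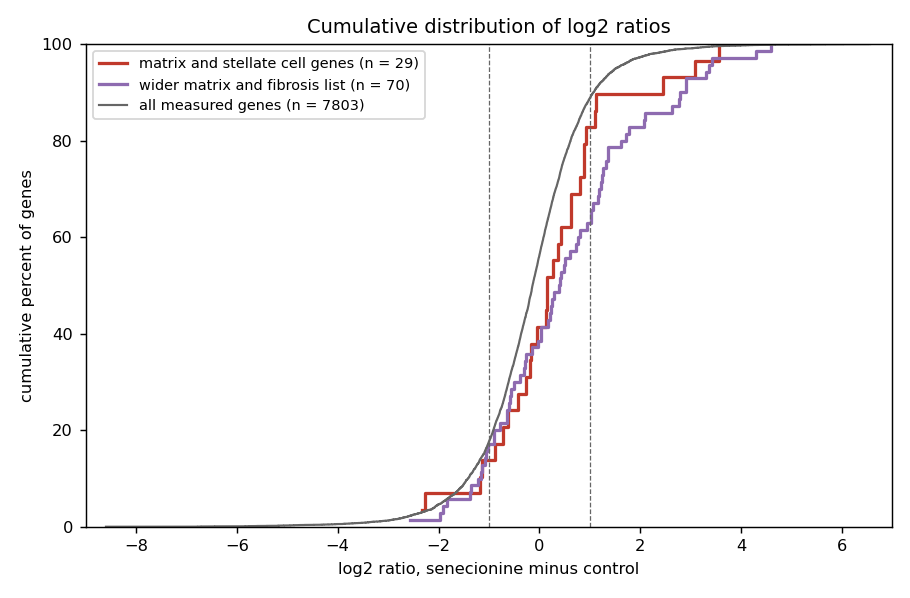
Cumulative percent of genes (y axis) by log2 ratio, senecionine minus control (x axis), for the 29 matrix and stellate cell genes (red), the 70 measured genes of the wider list (violet) and all 7803 measured genes (grey). Dashed lines mark 2-fold. The median lies at 0.16 for the red curve, 0.41 for the violet curve and -0.14 for the grey curve.

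Enzymes that modify collagen were higher in 3 and lower in 1 of 10. P4ha1, a prolyl hydroxylase subunit that stabilises the collagen helix, had 3.74 in senecionine livers and 0.498 in control livers (2.91 ± 0.25). Pcolce, which speeds removal of the procollagen C-propeptide, had a log2 ratio of 1.35 ± 0.20. P4ha2 lay at the line (1.02 ± 0.20, and 0.89 with median scaling). Bmp1, the proteinase that removes that propeptide, was lower at -1.22 ± 0.20, though 1 of its probes gave -0.58 and it came within 2-fold with cyclic loess, at -0.98. Plod2, a lysyl hydroxylase of scar collagen, was at least 4.61-fold higher.

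Other matrix proteins were higher in 6 and lower in 2 of 19. The highest were laminin chains of epithelia, Lama5 with 7.003 in senecionine livers and 0.651 in control livers (3.43 ± 0.22) and Lamb3 with 2.77 in senecionine livers and 0.279 in control livers (3.31 ± 0.30). Spp1 (osteopontin) was at least 106-fold higher and Vcan (versican), a large proteoglycan of provisional matrix, at least 18.9-fold. Efemp2, an elastic fibre protein, had a log2 ratio of 1.32 ± 0.21 and Col8a1 one of 1.26 ± 0.28, or 0.29 with normexp. On the lower side were Tgfbi (-1.14 ± 0.20) and Ogn (-1.02 ± 0.21), both within 2-fold under other scalings.

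Further proteases went both ways, with 2 higher and 2 lower of 7. Mmp12, the macrophage elastase, had 7.54 in senecionine livers and 0.154 in control livers, not well above background, a difference of at least 37.0-fold. Macrophage markers had a summed relative signal of 70.6 in senecionine livers and 124 in control livers, Clec4f at -3.17 ± 0.20, Adgre1 at -1.28 ± 0.21 and Cd68 at 1.06 ± 0.20. Mmp8, the neutrophil collagenase, was at least 3.71-fold higher. Mmp24 (1.72 ± 0.22) and Adam17 (1.35 ± 0.26, or 0.52 with normexp), which sheds TNF and EGF receptor ligands, were the 2 higher genes. Mmp16 (-1.96 ± 0.21) and Timp4 (-1.82 ± 0.26) were the 2 lower, and both are also known from brain. Timp4 came within 2-fold with normexp, at -0.68. The other Mmp16 probe gave -0.21, and the part of the nervous system signal in either gene was not tested. In the plasminogen system, which activates metalloproteinases, Plat and Plaur were at least 3.81-fold and 2.68-fold higher. For Plau the ratio was 3.69-fold, an estimate from a control signal that was not well above background. Serpine2, an inhibitor of thrombin and plasminogen activators, had a log2 ratio of -0.26 ± 0.21.

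Of 9 matrix receptors 4 were higher and 2 lower. Cd44, the hyaluronan receptor, had 23.7 in senecionine livers and 1.21 in control livers (4.29 ± 0.21). Itgb1, the common beta subunit of collagen and fibronectin receptors, had 26.8 in senecionine livers and 6.30 in control livers (2.09 ± 0.20). Sdc1 (1.18 ± 0.20) and Sdc4 (1.16 ± 0.20), heparan sulfate proteoglycans of the cell surface, were higher as well, and Sdc3 (-1.36 ± 0.20) and Itgb5 (-1.16 ± 0.21) lower. Both lower calls were lost with normexp.

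Of 6 fibrogenic signals 5 were higher and 0 lower. Ccn2 (connective tissue growth factor) had 3.87 in senecionine livers and 0.376 in control livers (3.36 ± 0.27), and Ccn1, of the same family, 3.38 in senecionine livers and 0.798 in control livers (2.08 ± 0.22). Lgals3 (galectin-3), which macrophages secrete, had a log2 ratio of 2.91 ± 0.20, and Pdgfa 1.77 ± 0.22. Tgfb1, the main inducer of collagen genes, lay at the line at 1.06 ± 0.21, or 0.92 under the setting lowest for it.

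The list of activated stellate cell and myofibroblast genes held 7 measured genes, of which 5 were higher and 0 lower under all 5 settings. Tpm2, a tropomyosin, had 93.3 in senecionine livers and 3.89 in control livers (4.59 ± 0.20). Tagln, an actin-binding protein of contractile cells, had 5.04 in senecionine livers and 0.725 in control livers (2.80 ± 0.22). S100a6 and Vim (vimentin), which many cell types express, had log2 ratios of 2.76 ± 0.20 and 2.63 ± 0.21. Lgals1 did not differ beyond its spot error (0.02 ± 0.20).

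Quiescent stellate cell genes, apart from the members above, were lower in 3 and higher in 1 of 8. Pth1r, a parathyroid hormone receptor, had 0.484 in senecionine livers and 2.87 in control livers (-2.57 ± 0.21). Lhx2, a transcription factor of quiescent stellate cells, was lower as well (-1.38 ± 0.21, or -0.99 with normexp). Cygb (cytoglobin), also a stellate marker, was the 1 higher gene, with 12.3 in senecionine livers and 5.19 in control livers (1.25 ± 0.20). Of the 8 ratios, 6 lay below 0 and 2 above. Nes, of the same list, passed background in senecionine livers alone and was at least 3.02-fold higher. In a list of portal fibroblast genes 2 of 4 were lower, Entpd2 (-1.07 ± 0.20) and Gli1 (-1.06 ± 0.31), both within 2-fold with normexp, while Msln had 0.43 ± 0.21 and Gpc3 0.42 ± 0.25.

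**Figure D5:**
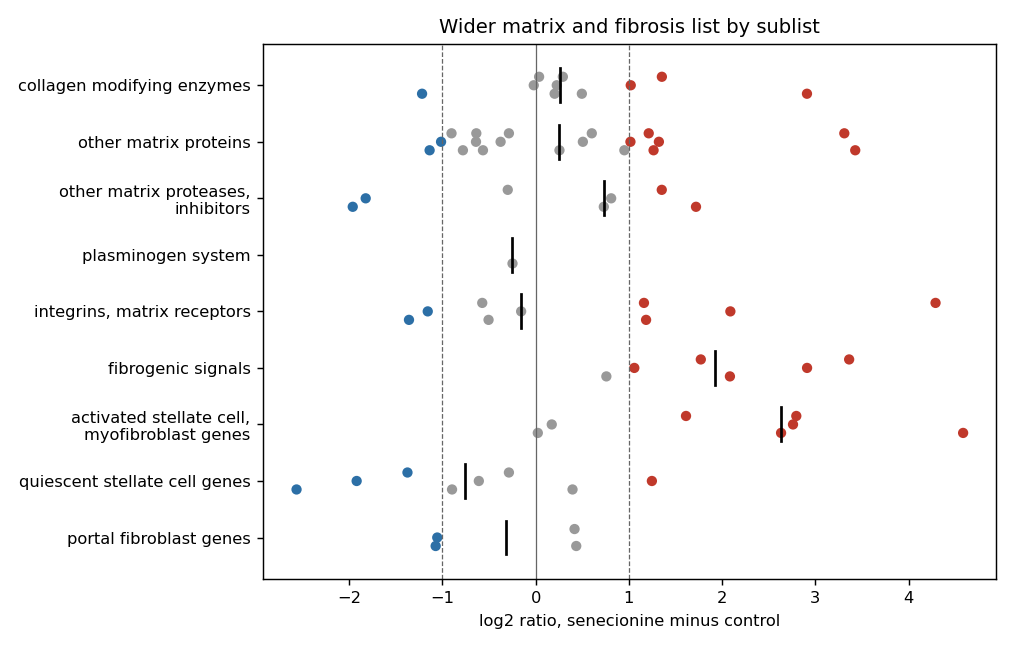
Log2 ratio, senecionine minus control, of each measured gene of the wider list (points) by sublist, red from 2-fold higher on, blue from 2-fold lower on and grey between, with the sublist's median as a black line. Activated stellate cell and fibrogenic genes lie mostly right of the upper dashed line, and 3 of 8 quiescent stellate cell genes left of the lower one.

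In the authors' deposited table, 13 probes of 12 of the 48 genes are listed, 10 genes higher and 2 lower after senecionine, beside 2032 higher and 1484 lower (57.8% higher) of all 3516 named genes in it. Beside Serpinh1, the authors' deposited table holds Dcn at a log2 difference of 3.69, Timp1 at 3.29, Des at 2.53, Hhip at -2.54 and Lrat at -2.26. The authors' deposited table also lists Mmp9 (3.54), Rgs5 (2.33), Gas6 (1.44 and 1.24 on its 2 probes), Fbn1 (1.39, on its dimmer probe), Col4a1 (1.34) and Timp2 (1.15), with no error. No fibrillar collagen is among its listed members, and neither are Bgn and Sparc.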

How the data were processed

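Liver RNA was measured on 2 one-colour Agilent arrays, 1 for senecionine and 1 for control. Per the submitters' processing notes, the deposited intensity values come from Agilent Feature Extraction 10.7.3.1. That software subtracted background and removed trends within each array, per the file headers. The values were not scaled between arrays. The series table holds the authors' log2 values for 7404 probes, whose scaling between arrays the sources used here do not give. The medians are 6.10 for senecionine and 6.03 for control, the smallest absolute difference is 1.00, and all 7355 probes compared had the direction found here. With the same arrays and a list cut on size, that outcome was close to fixed in advance and carries no weight.

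For the present values, control spots and outlier-flagged spots (497 on the senecionine array and 522 on the control array) were left out, and no spot was saturated. The log2 processed signal minus each array's 75th percentile was averaged over spots of a probe. Of 40516 probes, 17250 were named by unversioned RefSeq accession (GRCr8 gene table). A probe counted as well above background where at least 50% of its spots carried that mark, which held for 64.1% of spots on the senecionine array and 44.4% on the control array. A gene's brightest probe well above background on both arrays represented it. Genes detected on 1 array got a bound: the bright signal over either the dim probe's own signal or the lowest one well above background on that array, whichever was larger. Where the dim probe's own signal was the larger, as for Rgs5 and Plau, the value is an estimate and not a lower limit. The error of repeated spots was not reduced for their number.

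The members, lists and rules were chosen with earlier results of these data known. Every called member was named, and up to 4 genes per further sublist and 3 per marker list by absolute ratio, plus member bounds. Spp1, Vcan, Tgfbi, Ogn, Plod2, Mmp12, Mmp8, Sdc4, Itgb5, Itgb3, Tgfb1, Lgals1, Plat, Plau, Plaur and Nes fall outside this rule and were named after their values were seen. Some genes of these lists are not reported here. The counting was tested on simulated data, drawn from the control array's signals with spot error and known changes past 2-fold. Both simulated arrays shared the same scaling and background and held no spread between animals, so the test covers the counting rule only. The number of arrays limits the precision. Normalizations used limma 3.58.1 under R 4.3.3, and all else Python 3.11.15 with pandas 2.3.3 and numpy 2.4.6.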

Additional observations from a re-analysis of the deposited data

How the results depend on the processing

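Counts of member genes at least 2-fold higher, 5 as reported, were 3 with median scaling or a 4-fold threshold, 10 in the authors' series table and 11 with a 1.5-fold threshold, no detection filter or detection on either array. Over all genes the higher count also grew, to 1642 at 1.5-fold, 2394 with no filter and 2389 with detection on either array, against 876. It fell to 711 with median scaling and 213 at 4-fold. Counts lower, 4 as reported, were 2 with quantile normalization, cyclic loess, normexp correction, a 4-fold threshold or the authors' table, and 7 at 1.5-fold. The lower count of all genes, 1379 as reported, was 1283 with quantile normalization, 1311 with cyclic loess and 761 with normexp. It was 361 at 4-fold and 2424 at 1.5-fold. The members' median was 0.37 with no detection filter and 0.40 with detection on either array, since more genes enter, and no median was taken from the authors' table, which was selected on size. In the wider list, 50 genes were higher with no detection filter or detection on either array and 12 at 4-fold, against 26 as reported. Lower genes there numbered 4 with normexp and 1 at 4-fold, against 12, while the lower counts of all genes fell to 761 and 361. Col4a1 turned to -0.71 with the probe of smallest absolute ratio, because its 2 probes disagree. Of 300 recomputed single-gene ratios, 252 moved by less than the spot error and 47 by more, and that of Col4a1 was the 1 ratio past 2-fold to change sign. Many of the 252 could not move. Settings that changed only the detection rule kept each gene's probe, and genes with 1 measured probe had no other to choose. The tally is therefore no measure of robustness. Ratios within 2-fold changed sign in 10 cases, over 6 genes (Col1a1, Col5a1, Col6a2, Fbln5, Fn1 and Pdgfra). Median scaling shifted all genes' median by -0.13. The causes of the scaling differences were not tested. No paired analysis was possible because each group has 1 array. Dim genes (Hhip, Dcn, Des) moved most with background correction.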
